A study of Mus musculus with 10 samples.

Results

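Synaptic vesicle release was examined through 8 genes of its core machinery: Syt1, Snap25, Stx1a, Vamp2, Syp, Sv2a, Syn1 and Syn2. The genes were chosen by name and matched by symbol to mouse Ensembl identifiers, and they make up 8 of the 22024 identifiers in the count table. All 8 passed the filter on low counts, which kept 15191 identifiers for testing. PolyA RNA of the lumbar cord was sequenced from 10 mice, all female and 3 months old, with 1 library per animal. The mice carried a human TARDBP bacterial artificial chromosome (BAC), placed by integrase exchange at the mouse Rosa26 locus, or no transgene. TARDBP encodes the RNA-binding protein TDP-43, and M337V is a substitution in it linked to amyotrophic lateral sclerosis. The M337V group (5 mice) carried the BAC with this mutation, the WT group (2 mice) carried the BAC without it, and the NTg group (3 mice) consisted of nontransgenic C57BL/6 animals described as age-matched littermates. Each transgene is represented by 1 line, backcrossed to C57BL/6J for 3 generations or more, and the labels do not say whether the animals sequenced were homozygous or heterozygous. Libraries are named here by genotype and animal number (NTg 4, 5 and 6, WT 8 and 10, and M337V 1, 2, 3, 7 and 9).

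Human TARDBP, which has an identifier of its own in the table, was counted first as a check of the labels. The 7 libraries labelled WT or M337V held 2192 to 2723 counts of TARDBP, and NTg 5 and NTg 6 held 1 and 4. The library labelled NTg 4 held 2415, which lies among the transgenic values and goes against its label. Each comparison of the 8 genes and of the gene lists with NTg is therefore also given without the library labelled NTg 4. Library totals ran from 18724888 to 21041474 counts, so depth differed little between animals. Summed markers of other tissues varied more widely within groups: Schwann cell markers (6 genes) spanned 447 to 2060 CPM (read counts scaled to a common library size) in NTg, against 135 to 316 for WT and 222 to 1474 for M337V, and skeletal muscle markers (9 genes) spanned 140 to 1003, 17.8 to 552 and 26.2 to 162 CPM. The 9 muscle genes all had lower estimates in M337V than in NTg, and 2 of them, Myh2 and Mb, passed the test, beside 1.61% of all genes lower. Without the library labelled NTg 4 it was 1, beside 1.3% of all genes called in either direction. Caudal Hox genes (from Hoxa10 to Hoxd13, 11 measured) summed to 174 to 224 CPM in NTg, to 220.3 in WT 10 but 12.6 in WT 8. They summed to 41.2 in M337V 3 against 117 to 166 in the other M337V libraries. Hoxa10, Hoxc10 and Hoxd10 stood at 2.62, 9.68 and 0.105 CPM in WT 8, against 47.5, 73.5 and 42.0 in WT 10. Hoxa11 and Hoxd11 were at 0 in WT 8. All these libraries are labelled lumbar cord, and the part of the cord level or of muscle and nerve RNA in the results was not tested. Neuronal markers (14 genes, among them Rbfox3, Tubb3 and Nefl) summed to between 10486 and 11958 CPM in all libraries.

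Transmitter release begins when vesicles at the nerve terminal dock at the plasma membrane. Vamp2 on the vesicle pairs with syntaxin and Snap25 on the plasma membrane to form the SNARE complex, which draws the membranes together, and synaptotagmin triggers fusion when calcium enters. Synapsins tether vesicles in the reserve pool, while synaptophysin and Sv2a span the vesicle membrane. In the spinal cord these transcripts come from motor neurons and interneurons, and the descending and sensory axons that also end there have their cell bodies, and most of their mRNA, elsewhere.

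Short sequence elements near or within these genes were located first, because TDP-43 binds UG repeats in RNA and because the promoter of Syn1 is known for a binding site of the neuronal gene repressor REST. A run of at least 6 GT units (12 bases) was searched in the longest GENCODE transcript of each gene on the sense strand. It occurred in 2 of the 8 genes, Vamp2 and Sv2a, in both cases within the 3' UTR, against 1293 of the 15149 tested genes with a transcript sequence (8.54%). Introns, where TDP-43 also binds, were not analysed here. The run in Vamp2 lies on the plus strand at chr11:69090766-69090781 and spans 16 bases. That in Sv2a spans 15 bases on the plus strand at chr3:96194551-96194565 (GRCm38). In the following lines the run is in capitals, with 4 bases on either side.
Vamp2 3' UTR: atccGTGTGTGTGTGTGTGTccgt
Sv2a 3' UTR: cgcaTGTGTGTGTGTGTGTacca

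RefSeq promoter windows (GRCm38.p6, 250 bases before to 50 after a start site) were found for 6 of the 8 genes, in 8 windows: Syn1, Syn2, Stx1a, Syp, Sv2a and Syt1. The REST element was searched on both strands as TTCAGCACC, then 2 bases of any kind, GGNCAG, 1 base of any kind and GCC. The free positions were set after the strict letters had been seen to miss Syn1. The share of windows with this pattern therefore does not measure how unusual the match in Syn1 is. This pattern was present in 3 of 32851 promoter windows of all genes (0.00913%), 1 of them that of Syn1, at chrX:20921130-20921150. The cyclic AMP response element TGACGTCA was also in the Syn1 window, at chrX:20921070-20921077, and in 1.79% of all windows. Syn1 lies on the minus strand, and both elements are shown in that orientation, the matched letters and the free positions between them in capitals.
Syn1 REST element: cggaTTCAGCACCGCGGTCAGAGCCttcg
Syn1 cyclic AMP response element: tgacTGACGTCActca
The first bases of these elements stand 232 and 159 bases before the start site. A GC box (GGGCGG, either strand) occurred in 5 of the 8 windows, against 35.7% of all windows. By gene it occurred in 5 of these 6 (Stx1a, Sv2a, Syn2, Syp and Syt1), against 38.2% of all genes with a window. These matches describe letters in the windows and no binding was measured.

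Compared per kilobase of exon, Snap25 was the most abundant of the 8 transcripts and Stx1a the least. The mean over the 10 libraries was 447 ± 35.9 CPM per kb (SD) for Snap25, 148 ± 14.0 for Syp, 126 ± 9.94 for Sv2a, 89.9 ± 7.34 for Vamp2, 88.2 ± 9.32 for Syn1, 39.2 ± 2.96 for Syn2, 24.3 ± 2.99 for Syt1 and 5.05 ± 0.890 for Stx1a. The ranges of Syp and Sv2a overlapped, but Syp was above Sv2a in 10 of 10 libraries. Vamp2 and Syn1 could not be ordered by this measure, since Vamp2 was above Syn1 in 5 of 10 libraries. All other neighbours in this order had ranges that did not overlap. The order holds for the union of exons and depends on the length used. For Vamp2 the union is 3809 bases and the longest transcript 2205, for Sv2a 4636 and 4334, and for Syn1 3299 and 3261. An order by transcript length was not examined. Snap25 alone made up 40.6% to 52.0% of the summed level per kb of the 8 genes.

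Syt1 and Vamp2 were not the most abundant members of their families in the lumbar cord. Syt2, another fast calcium sensor, averaged 92.5 CPM per kb against 24.3 for Syt1, and Vamp1, another vesicle SNARE, averaged 141 against 89.9 for Vamp2. By contrast Snap25 stood above Snap47 (111), Snap29 (10.5) and Snap23 (6.13), Syn1 and Syn2 stood above Syn3 (1.57), Sv2a stood above Sv2b (21.3) and Sv2c (18.7), and Syp stood above Synpr (3.98). The highest synaptotagmin was Syt11, at 234 CPM per kb, a family member not known to bind calcium.

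**Figure D1:**
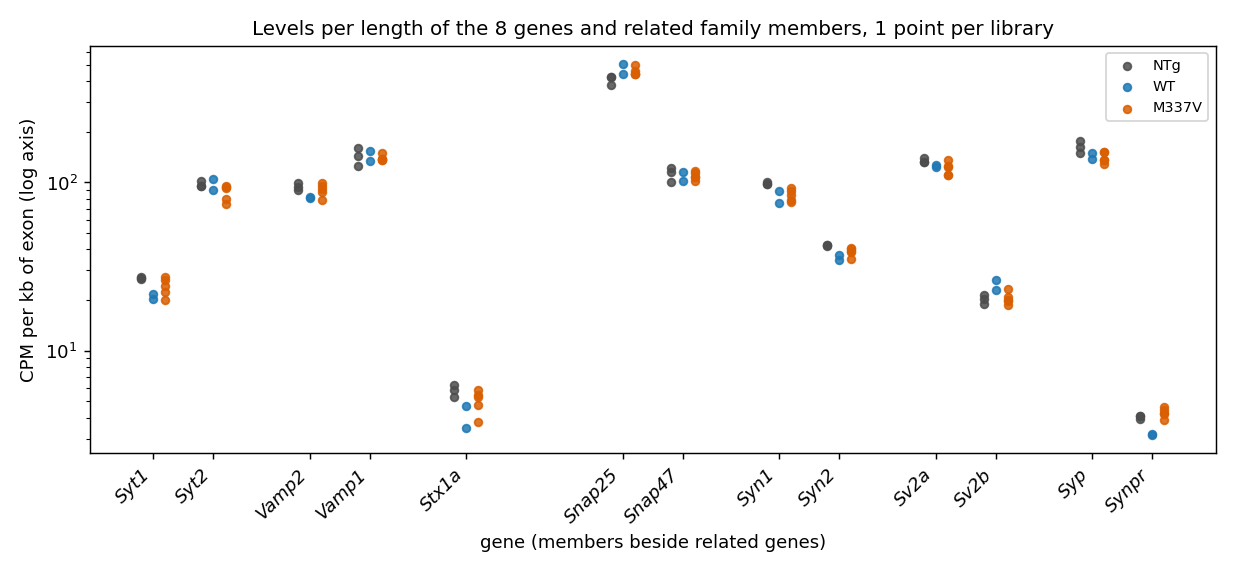
Level per kilobase of exon (CPM per kb, log axis) of the 8 genes and their relatives, 1 point per library, grouped by family. Vamp1 (141) and Syt2 (92.5) lie above Vamp2 (89.9) and Syt1 (24.3), while Snap25 (447) lies above all other genes shown.

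Levels in each library are given next by role, in CPM scaled with TMM factors. Such levels compare libraries within a gene and not genes with each other. In whole tissue, fewer cells of a type and less RNA per cell cannot be told apart.

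Syt1, the calcium sensor for synchronous release, lies at chr10:108497650-109010982 on the minus strand. Its level was 227, 224 and 222 CPM in NTg 4, 5 and 6, 182 and 169 in WT 8 and 10, and 203, 185, 167, 229 and 219 in M337V 1, 2, 3, 7 and 9. The NTg libraries lay close together and the WT libraries lay below all of them, whereas M337V ran from the lowest value of all, in M337V 3, to the highest, in M337V 7. Group means were 224 ± 2.62 (SD, n = 3) in NTg, 175 ± 9.24 (n = 2) in WT and 201 ± 25.2 (n = 5) in M337V.

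Snap25 and Stx1a encode the plasma membrane SNARE proteins. For Snap25 (chr2:136713453-136782428, plus strand) the values were 2593, 2882 and 2872 CPM in NTg 4, 5 and 6, 3006 and 3419.8 in WT 8 and 10, and 2992, 3141, 3391, 3017 and 3013 in M337V 1, 2, 3, 7 and 9. Every library labelled WT or M337V stood above every library labelled NTg, with the highest values in WT 10 and M337V 3. The lowest value was in the library labelled NTg 4, which held human TARDBP counts. Among all genes, 9.51% were higher without overlap in M337V against NTg and 19.6% in WT against NTg. Stx1a (chr5:135023482-135051100, plus strand) was at 16.6, 14.1 and 15.5 CPM in NTg, 12.5 and 9.21 in WT, and 15.5, 14.4, 10.1, 14.2 and 12.7 in M337V, in the same order of animals. Here WT 10 and M337V 3 were the lowest libraries, the WT values lay below all NTg values, and M337V overlapped both other groups. Means for Snap25 were 2782 ± 164 in NTg, 3213 ± 293 in WT and 3111 ± 167 in M337V, and for Stx1a 15.4 ± 1.21, 10.8 ± 2.30 and 13.4 ± 2.08.

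Vamp2 (chr11:69088490-69092384, plus strand), the SNARE of the vesicle itself, gave 376, 356 and 345 CPM in NTg 4, 5 and 6, 314 and 308 in WT 8 and 10, and 377, 349, 300.4, 365 and 332 in M337V 1, 2, 3, 7 and 9. The WT libraries were below all NTg libraries, and the M337V libraries included both the highest value, in M337V 1, and the lowest, in M337V 3. Its means were 359 ± 15.7 in NTg, 311 ± 4.38 in WT and 345 ± 30.1 in M337V.

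Among the vesicle membrane proteins, Syp encodes synaptophysin, which binds Vamp2, and Sv2a a transporter-like protein that is the target of the antiepileptic drug levetiracetam. Syp (chrX:7638471-7653256, plus strand) was at 779, 847 and 916 CPM in NTg 4, 5 and 6, at 719.6 and 785 in WT 8 and 10, and at 710.2, 669, 713, 789 and 795 in M337V 1, 2, 3, 7 and 9. The library labelled NTg 4 lay inside the range of the transgenic libraries, and NTg 5 and NTg 6 lay above it. Sv2a (chr3:96181151-96195521, plus strand) was at 613, 613 and 651 CPM in NTg, 585 and 571 in WT, and 570.3, 512, 510.2, 627 and 584 in M337V. M337V 7 was the only transgenic library within the NTg range of Sv2a, and M337V 2 and M337V 3 were lowest. Means in NTg, WT and M337V were 847 ± 68.8, 752 ± 46.5 and 735 ± 54.9 for Syp, and 626 ± 22.0, 578 ± 9.97 and 561 ± 50.1 for Sv2a.

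Syn1 and Syn2 encode the synapsins, phosphoproteins on the outer face of the vesicle. Syn1 (chrX:20860511-20921004, minus strand) gave 334, 323 and 323 CPM in NTg 4, 5 and 6, 293 and 250.5 in WT 8 and 10, and 279, 258, 251, 305 and 293 in M337V 1, 2, 3, 7 and 9. Syn2 (chr6:115134902-115282006, plus strand) gave 299.7, 296 and 297 CPM in NTg, 260.4 and 242 in WT, and 288, 271, 246, 276 and 282 in M337V. For both synapsins every library labelled WT or M337V was below every library labelled NTg, the only members of which this held in that direction. The highest level of both was in the library labelled NTg 4, whose human TARDBP count lay among the transgenic values, so this separation follows the labels. Among all genes, 8.61% were lower without overlap in M337V against NTg and 22.1% in WT against NTg. The share of genes lower in both was not computed. Means in NTg, WT and M337V were 327 ± 6.16, 272 ± 30.1 and 277 ± 22.6 for Syn1, and 298 ± 1.89, 251 ± 12.8 and 273 ± 16.3 for Syn2.

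**Figure D2:**
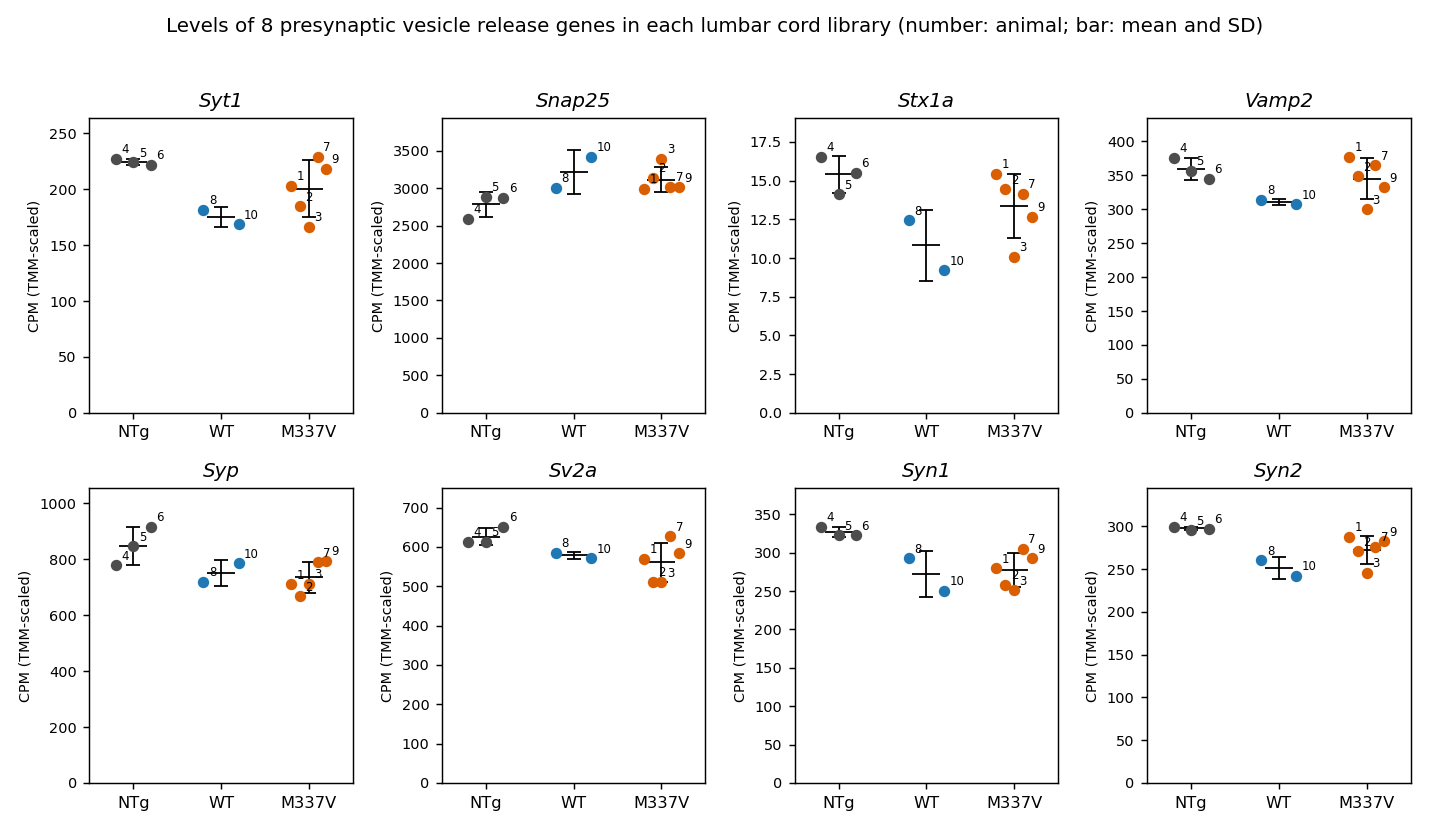
TMM-scaled CPM of each of the 8 genes by genotype, 1 point per library marked with its animal number, with bars for the group mean and SD. Syn1 and Syn2 lie lower in all 7 libraries labelled transgenic than in those labelled NTg, and Snap25 lies higher. Of all genes, 8.61% (M337V) and 22.1% (WT) lie lower than NTg without overlap, and 9.51% and 19.6% higher. The library labelled NTg 4, which held human TARDBP counts, is highest for Syn1 and Syn2 and lowest for Snap25. M337V 3 is lowest or close to it for every other gene of the set except Syp.

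The comparison of M337V with NTg addresses the effect of carrying the mutant human transgene. None of the 8 genes passed edgeR's quasi-likelihood test at an adjusted p of 0.05 over all 15191 genes, where 651 genes passed (4.29%), 406 of them higher (2.67%) and 245 lower (1.61%), and 3718 had an unadjusted p under 0.05. limma-voom and DESeq2 each called 1 of the 8, Syn1, with 1315 (8.66%) and 1500 (10%) genes called in all. Syn1 had a log2 difference of -0.24 ± 0.07 (SE, 95% interval -0.39 to -0.08, edgeR adjusted p = 0.0723), a fold of 0.849. Syn2 differed by -0.13 ± 0.05 (adjusted p = 0.172) and Snap25 by 0.16 ± 0.06 (0.0198 to 0.30, adjusted p = 0.151). Of the genes whose M337V and NTg libraries did not overlap, these were the 2 lower and the 1 higher, against 8.61% and 9.51% of all genes.

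For the vesicle membrane proteins the differences from NTg were -0.20 ± 0.07 for Syp (adjusted p = 0.107) and -0.16 ± 0.07 for Sv2a (adjusted p = 0.174). Syt1 differed by -0.16 ± 0.09 (adjusted p = 0.276), Stx1a by -0.20 ± 0.14 (adjusted p = 0.386) and Vamp2 by -0.06 ± 0.07 (adjusted p = 0.639), each with groups that overlapped. The median of the 8 log2 differences was -0.16, with 7 negative, and the median of all genes was -0.01. Without the library labelled NTg 4 none of the 8 and 197 of all genes (1.3%) passed. Syn1 then stood at -0.21 (adjusted p = 0.191), Snap25 at 0.12 (adjusted p = 0.389), Syp at -0.26 (adjusted p = 0.112), Sv2a at -0.17 (adjusted p = 0.283) and Syn2 at -0.11 (adjusted p = 0.356). Syt1 stood at -0.15 (adjusted p = 0.471), Stx1a at -0.14 (adjusted p = 0.663) and Vamp2 at -0.0178 (adjusted p = 0.929), with a median of -0.15 over the 8. Without M337V 3 the smallest adjusted p of the 8 was 0.147, for Syn1, and their median was -0.10.

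Within M337V the animals numbered 1 to 3 and those numbered 7 and 9 differed for several of these genes, and the result depended on which were kept. With M337V 7 and 9 omitted, 4 genes were called lower than in NTg: Syn1 (-0.31, adjusted p = 0.0304), Syp (-0.28, adjusted p = 0.0437), Sv2a (-0.23, adjusted p = 0.0455) and Syt1 (-0.27, adjusted p = 0.0469), while 1146 genes (7.59%) were called in all. With M337V 1 to 3 omitted, none of the 8 and 3 of all genes were called, and Syt1 stood at 0.0053. The library names carry the numbers 10, 11 and 12 for M337V 1 to 3, and 5 and 7 for M337V 7 and 9. Those of NTg carry 2, 3 and 4, and those of WT carry 6 and 8. What these numbers stand for is not stated. No litter, dissection day or sequencing run is named for these animals, so the part of such a factor was not tested.

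The WT group against NTg addresses the effect of the human BAC without the mutation, with the same 3 control libraries as the preceding comparison. Here too none of the 8 passed the edgeR test, with 857 of all genes called (5.64%), 545 higher (3.59%) and 312 lower (2.05%), and 3842 at an unadjusted p under 0.05. limma-voom called 0 of the 8 (215 of all genes, 1.42%), and DESeq2 called 4 of them (1724 of all genes, 11.5%), with Syt1, Syn1 and Syn2 lower and Snap25 higher. Stx1a showed the widest difference, -0.51 ± 0.17 (SE, 95% interval -0.89 to -0.13, edgeR adjusted p = 0.0980), a fold of 0.703. Syt1 followed at -0.36 ± 0.11 (-0.60 to -0.12, adjusted p = 0.0735). The synapsins differed by -0.27 ± 0.09 for Syn1 (adjusted p = 0.0922) and -0.24 ± 0.07 for Syn2 (adjusted p = 0.0552), the smallest adjusted p of the set.

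Vamp2 differed by -0.21 ± 0.09 (adjusted p = 0.153), Syp by -0.17 ± 0.09 (adjusted p = 0.257), Sv2a by -0.11 ± 0.09 (adjusted p = 0.434) and Snap25 by 0.21 ± 0.08 (adjusted p = 0.133). The median over the 8 was -0.23, with 7 negative, and that of all genes was -0.02. WT and NTg did not overlap for 7 of the 8 genes, all but Syp, with 6 lower and Snap25 higher. Among all genes 22.1% were lower and 19.6% higher without overlap with these 2 and 3 libraries. Without the library labelled NTg 4 none of the 8 and 283 of all genes (1.87%) passed, with Syt1 at -0.34 (adjusted p = 0.158), Stx1a at -0.45 (adjusted p = 0.219), Syn1 at -0.24 (adjusted p = 0.205) and Syn2 at -0.23 (adjusted p = 0.130). Vamp2 stood at -0.17 (adjusted p = 0.343), Syp at -0.22 (adjusted p = 0.213), Sv2a at -0.12 (adjusted p = 0.512) and Snap25 at 0.17 (adjusted p = 0.292), and the median over the 8 was -0.23. Without WT 8, the library low in caudal Hox genes, none of the 8 passed either, with Stx1a at -0.74 (adjusted p = 0.0745), Syn1 at -0.38 (adjusted p = 0.0669) and a median of -0.26. M337V 1 to 3 are in neither group here and enter only through the filter, the scaling factors and the shared estimate of the spread. Omitting them brought Syt1 (-0.34, adjusted p = 0.0199) and Syn2 (-0.23, adjusted p = 0.0411) past the threshold, with 957 of all genes (6.33%). Omitting M337V 3 alone did so for the same 2 genes (adjusted p = 0.0344 and 0.0303). In that setting 1086 of all genes were called, the most with any 1 library left out.

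M337V against WT compares the mutant with the unmutated human transgene at the same locus. Each transgene is represented by 1 line, so the mutation and the line cannot be told apart. None of the 8 genes and 0 of 15191 genes (0%) passed the edgeR test in either direction (0% higher, 0% lower), with 1012 genes at an unadjusted p under 0.05, 0 called by limma-voom and 29 by DESeq2 (0.198%), none of them among the 8. Differences on the log2 scale were 0.30 ± 0.16 for Stx1a (95% interval -0.0487 to 0.66, adjusted p = 0.779), 0.20 ± 0.10 for Syt1 (-0.0259 to 0.42, adjusted p = 0.776), 0.15 ± 0.08 for Vamp2 (-0.0205 to 0.32, adjusted p = 0.776) and 0.12 ± 0.06 for Syn2 (-0.0174 to 0.25, adjusted p = 0.776). The other 4 lay between -0.0464, for Snap25, and 0.0299, for Syn1, with intervals that reached from -0.21 to 0.21 at most. All 8 genes had overlapping groups, where 4.85% of all genes were higher and 4.65% lower without overlap. The median was 0.07 with 5 positive, against a median of 0.0006 over all genes. These intervals still allow differences of about the size seen against NTg.

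**Figure D3:**
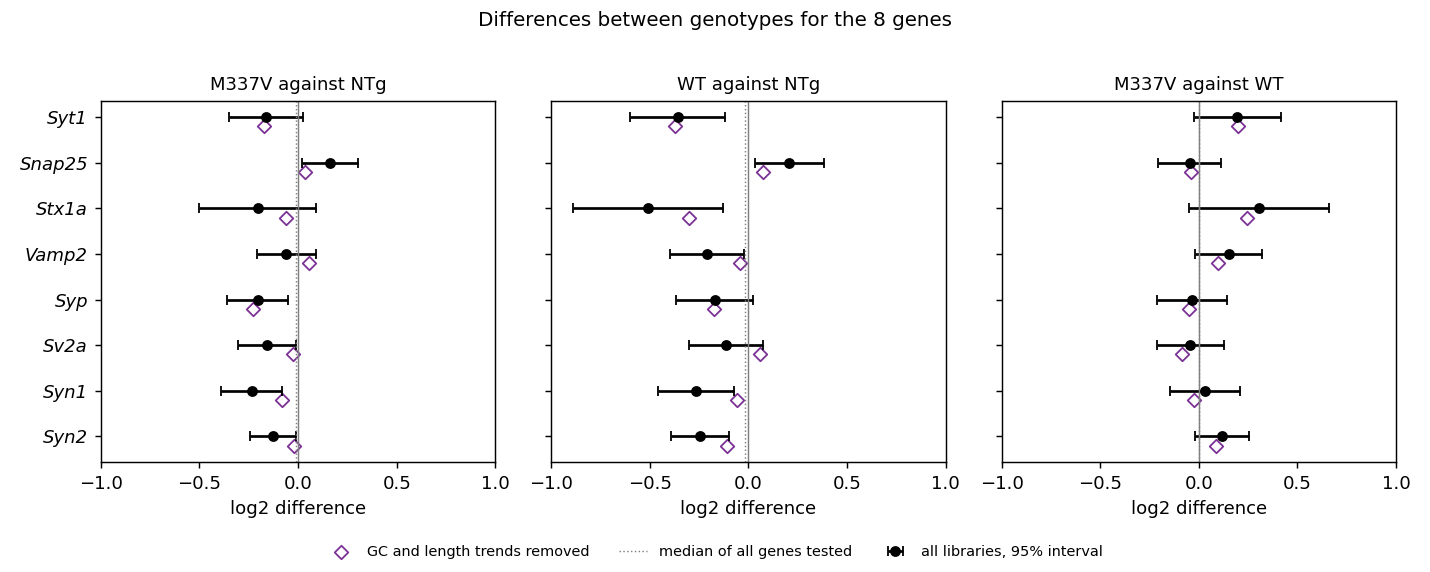
Log2 differences of the 8 genes in the 3 comparisons (points) with 95% intervals (bars), the same differences with GC and length trends removed (open diamonds), and the median of all genes tested (dotted line). Against NTg, 7 of 8 filled points lie below 0 and Snap25 above it, and no gene passes the adjusted threshold in any of the 3 comparisons.

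Most differences from NTg were smaller once trends with GC content and transcript length were removed in 1 step. The longest transcript of Snap25 had a GC content of 38.7%, below the median of all genes tested (49.9%), as had Syp (45.4%) and Syt1 (45.8%), while Syn2 (51.6%), Vamp2 (53.2%), Sv2a (54.2%), Stx1a (57.9%) and Syn1 (57.9%) lay above it. When trends with GC content and transcript length were removed from each library, the M337V difference from NTg became 0.0354 for Snap25, -0.0809 for Syn1, -0.0218 for Syn2, -0.0249 for Sv2a, -0.0596 for Stx1a and 0.0539 for Vamp2. Syp and Syt1 stood at -0.23 and -0.17, close to their values without the removal. In WT against NTg the same step left Syt1 at -0.37 (adjusted p = 0.0635), Stx1a at -0.30 and Syp at -0.18, and it brought Syn1 to -0.0563, Snap25 to 0.0735 and Sv2a to 0.0583. The step called 524 genes in M337V against NTg (433 higher, 91 lower) and 907 in WT against NTg (756 higher, 151 lower), a higher share of genes on the upper side than without it. It moved the median of all genes to 0.0379 and 0.0591, so the positive values of Vamp2 and Sv2a lie close to the median gene. GC content and length were not removed separately, and their part in these differences was not tested beyond this step.

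Across the libraries 7 of the 8 genes tended to vary together, Syp the least closely, and Snap25 varied the other way. In NTg 4, 5 and 6 and in M337V 7 all 7 genes other than Snap25 were above their own mean over the 10 libraries, in M337V 3 none was, and in WT 10 only 1 was. The mean deviation of these 7 genes was 0.15, 0.11 and 0.15 (log2) in NTg 4, 5 and 6, -0.0729 and -0.19 in WT 8 and 10, and 0.0355, -0.0774, -0.22, 0.0866 and 0.0177 in M337V 1, 2, 3, 7 and 9. Snap25 deviated by -0.22 in the library labelled NTg 4, by 0.18 in WT 10 and by 0.17 in M337V 3. WT 10 and M337V 3 were thus the 2 highest libraries for Snap25, and M337V 3 and WT 10 had the 2 lowest mean deviations of the other 7 genes.

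**Figure D4:**
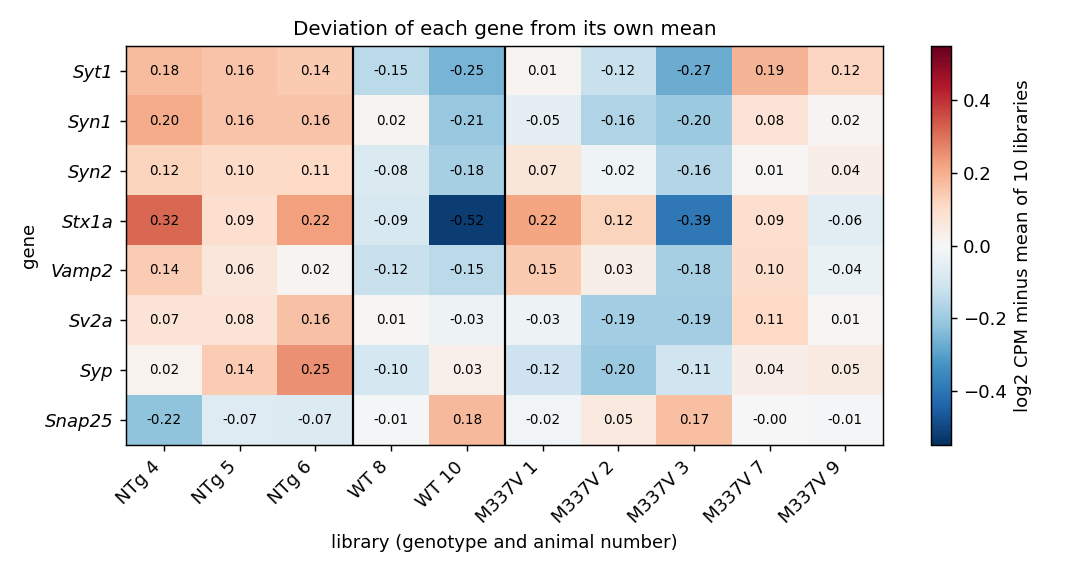
Log2 CPM of each gene minus its mean over the 10 libraries, by library (columns, grouped by genotype) and gene (rows), with the value printed in each cell. WT 10 and M337V 3 are low for nearly all genes and high for Snap25 (0.18 and 0.17), and the NTg libraries show the opposite signs.

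As a description over the 10 libraries, the 21 pairs of genes that did not include Snap25 had Pearson correlations with a median of 0.777 (0.144 to 0.916), and the 7 pairs with Snap25 a median of -0.822 (-0.916 to -0.382). With group means removed the medians were 0.632 and -0.71, with 19 of 21 and 1 of 7 pairs positive. The exceptions were all pairs of Syp: with Stx1a (-0.276), with Vamp2 (-0.181) and with Snap25 (0.222). The points share depth scaling, genotype and base composition, as well as the labelled group of NTg 4. Stx1a varied most between libraries, with an SD of 0.27 on the log2 scale, followed by Syt1 (0.18) and Syn1 (0.15), and Syn2 varied least (0.11). The median SD of all genes was 0.14.

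Markers of other cells moved with the groups as well. The 10 oligodendrocyte markers, which include Mbp and Mog, had sums from 23693 to 28270 CPM for NTg, from 34780 to 38615 for WT and from 31909 to 39308 for M337V, with no overlap between NTg and the transgenic groups. Of these markers 7 of 10 were called higher in M337V and 8 of 10 in WT against NTg, beside 2.67% and 3.59% of all genes. Without the library labelled NTg 4 it was 4 of 10 in each, beside 1.3% and 1.87% of all genes called in either direction. Microglial markers (6 genes) summed to 311 to 367 CPM for NTg, 387 to 416 for WT and 386 to 411 for M337V, again without overlap. Of the 6, 1 gene, P2ry12, was called higher in each comparison with NTg, beside the same shares of all genes (also 1 of 6 in each without the library labelled NTg 4). Motor neuron markers (Chat, Slc5a7, Isl1, Mnx1 and Prph) had sums from 192 to 221 CPM for NTg, from 278 to 302 for WT and from 172 to 315 for M337V, the last highest in M337V 3, and none of the 5 was called in any comparison. Of the 14 neuronal markers 0 were called in M337V against NTg. In WT against NTg 1, Elavl4, was called higher (3.59% of all genes), a call lost without the library labelled NTg 4. Defining sensory ganglion markers were near 0, with 2 of 6 genes past the filter and a sum of 0.858 to 2.35 CPM in all libraries. The part of cell composition in the levels of the 8 genes was not tested.

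Among the 25 measured relatives of these genes, Sypl and Vamp3 rose in both comparisons with NTg, which share their controls. These were 2 of 25 in each, beside 2.67% (M337V) and 3.59% (WT) of all genes called higher. Sypl encodes a synaptophysin-like protein found outside neurons as well, and Vamp3, or cellubrevin, is a broadly expressed vesicle SNARE. Sypl was at 167, 178 and 147 CPM in NTg 4, 5 and 6, 307 and 249.9 in WT 8 and 10, and 229, 255, 246, 255 and 221 in M337V 1, 2, 3, 7 and 9, with every transgenic library above NTg. Its log2 difference was 0.56 ± 0.08 in M337V (adjusted p = 0.0122) and 0.77 ± 0.10 in WT (adjusted p = 0.00804). Vamp3 was at 63.6, 68.0 and 60.0 CPM in NTg, 87.0 and 77.2 in WT, and 73.9, 91.6, 75.4, 79.7 and 76.1 in M337V, and it differed by 0.31 ± 0.08 in M337V (adjusted p = 0.0453) and by 0.36 ± 0.10 in WT (adjusted p = 0.0478). The Sypl call in WT held under all 19 alternatives, and in M337V it was lost without NTg 6 and with M337V 1 to 3 omitted (highest adjusted p = 0.166). The Vamp3 calls held in 8 and 6 of 19 alternatives and were lost, among others, without the library labelled NTg 4.

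In WT against NTg 3 of the 25 relatives fell (2.05% of all genes): Syt5, Syt6 and Synpr. Syt5, a synaptotagmin, was at 27.2, 25.7 and 29.0 CPM in NTg, 16.6 and 14.9 in WT, and 25.0, 22.7, 17.0, 22.3 and 24.2 in M337V, a WT difference of -0.79 ± 0.14 (adjusted p = 0.0154), lost when NTg 6, WT 10 or the pair of NTg 4 and WT 8 was left out (highest adjusted p = 0.0716). Synpr, which encodes the vesicle protein synaptoporin, was at 38.8, 38.4 and 36.8 CPM in NTg, 30.3 and 29.9 in WT, and 43.7, 41.7, 40.3, 36.5 and 39.6 in M337V. The WT libraries were below all others for Synpr, with a difference of -0.33 ± 0.08 (adjusted p = 0.0322) that was lost when any 1 NTg or WT library was left out (highest adjusted p = 0.151). Syt6 was at 41.7, 36.8 and 36.5 CPM in NTg, 29.5 and 26.2 in WT, and 39.3, 34.5, 28.6, 37.7 and 36.6 in M337V, a WT difference of -0.46 ± 0.12 (adjusted p = 0.0498) that held in 4 of 19 alternatives. Without the library labelled NTg 4, the Syt5 call held (adjusted p = 0.0354) and those of Synpr (adjusted p = 0.0875) and Syt6 (adjusted p = 0.132) did not. No relative was called in M337V against WT.

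Ratios of relatives within a library were compared by exact permutation tests over libraries, 15 in all. Syt2 stood at 3.63 ± 0.18 times Syt1 per kb in NTg, 4.65 ± 0.27 in WT and 3.67 ± 0.55 in M337V, where M337V 3 reached 4.62. Snap47 stood at 0.276 ± 0.0121 times Snap25 in NTg, 0.230 ± 0.000383 in WT and 0.240 ± 0.0149 in M337V, and the M337V and NTg libraries did not overlap (exact two-sided p = 0.0357, the smallest this design allows, adjusted p = 0.3). Without the library labelled NTg 4 the NTg mean of this ratio was 0.281 ± 0.0117 (n = 2), still without overlap (exact two-sided p = 0.0952, the smallest that 5 against 2 allows). No ratio passed after adjustment, and 3 against 2 libraries cannot go below an exact p of 0.2.

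A wider list of 71 presynaptic genes, without the 8, had 70 genes past the filter. In M337V against NTg 0 of 70 were called by edgeR, and 7 by limma-voom and 9 by DESeq2, where 8.66% and 10% of all genes were called, and the median difference was -0.07 with 49 negative. Among the smallest p-values were those of Svop (-0.18, adjusted p = 0.0623), a transporter-like vesicle protein, Slc32a1 (-0.26, adjusted p = 0.0718), the vesicular transporter of GABA and glycine, and Syt3 (-0.22, adjusted p = 0.0800). In WT against NTg 3 of 70 fell (2.05% of all genes) and 0 rose (3.59% of all genes), namely Syt5, Synpr and Svop, again with a median of -0.07. Svop was at 90.2, 97.2 and 102 CPM in NTg 4, 5 and 6, 78.2 and 80.9 in WT, and 85.2, 83.7, 83.2, 84.2 and 89.6 in M337V, a WT difference of -0.28 ± 0.06 (adjusted p = 0.0311) that went to -0.0673 (adjusted p = 0.655) with the GC and length trends removed. Without NTg 6 none of the 70 was called. Without the library labelled NTg 4, Stxbp6 was the 1 gene of the list called in M337V (0.27, adjusted p = 0.0481), beside 1.3% of all genes, and is named here after its values were seen. In WT Stxbp6 was then called higher (0.305, adjusted p = 0.0460) and Syt5 and Svop lower, beside 1.87% of all genes called in either direction. The list medians were -0.0877 in M337V and -0.10 in WT.

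By role, the median differences in M337V and in WT from NTg were -0.17 and -0.15 for calcium sensors (8 genes), -0.0899 and -0.17 for active zone proteins (14 genes), -0.0750 and -0.0721 for vesicle proteins (14 genes), -0.0390 and -0.0985 for SNARE assembly and priming (15 genes), -0.0193 and 0.0582 for vesicle recycling (8 genes), and -0.0773 and 0.0503 for transmitter loading (11 genes). Without the library labelled NTg 4 they were, in that order of roles, -0.16 and -0.16, -0.0829 and -0.13, -0.0782 and -0.0923, -0.0471 and -0.12, -0.0058 and 0.0716, and -0.13 and -0.0245, so that the WT median for transmitter loading turned its sign. In M337V against WT 0 of 70 were called by edgeR or limma-voom, with a median of -0.0137. The smallest p-values there belonged to Synpr (0.42, adjusted p = 0.176), the 1 gene of the list that DESeq2 called (adjusted p = 0.00252), followed by Syt5 (0.50), the priming factor Unc13b (0.46) and the vesicle protein Sv2b (-0.27), each with an adjusted p of 0.625.

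Genes outside the set were ranked by their likeness to the mean centred log2 CPM of the 8 genes over the 10 libraries. The highest Pearson correlations belonged to Dchs1 (0.982), Gfra2 (0.977), Eepd1 (0.971), Chst1 (0.967), Irf2bp1 (0.966), Ripor1 (0.962), Nptxr (0.958), Cds2 (0.957), Pnmal2 (0.955) and Zc3h4 (0.952). The transcripts of all 10 were richer in GC (51.6% to 63.6%) than the median gene (49.9%). The median correlation was 0.411 over skeletal muscle markers, 0.348 over meningeal markers, 0.348 over caudal Hox genes, 0.345 over the 70 wider presynaptic genes and 0.173 over Schwann cell markers. It was -0.085 over astrocyte markers, -0.203 over neuronal markers, -0.533 over microglial markers, -0.635 over motor neuron markers and -0.725 over oligodendrocyte markers, against 0.048 over all genes tested. By this median the wider presynaptic list was about as close to the 8 genes as the meningeal and caudal Hox lists, and less close than the skeletal muscle list. Of the 8 genes themselves, Syt1 (0.944), Syn2 (0.933) and Syn1 (0.881) followed the mean of the other 7 most closely, Syp (0.506) followed it least, and Snap25 ran against it (-0.901).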

How the data were processed

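The authors deposited raw whole-number counts for each gene and library. Per the labels' protocols, polyA RNA with integrity numbers above 8 was made into stranded libraries and sequenced as read pairs. STAR 2.4.2a, Salmon 0.8.2, featureCounts (Subread 1.4.6), Trimmomatic 0.32, FastQC 0.11.2, Picard 2.6.0, R 3.3.0 and DESeq2 1.14.1 appear in the submitters' processing notes, with no role or order. The genome build and annotation were not given in the sources used here. Names and coordinates are from GENCODE M21 (GRCm38), which named 21774 identifiers and left 250 unnamed. The members and lists were chosen with earlier results of these data known, and the lists are reported by counts and medians only. Some further genes of the set and the lists are not reported here.

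Counts were fitted with edgeR 4.0.16 (TMM, quasi-likelihood test, 1 mean per genotype over all 10 libraries, no covariate) in R 4.3.3 after filterByExpr (minimum count 10, minimum total 15), which kept 15191 identifiers holding 99.97% of counts. P-values were adjusted by Benjamini-Hochberg over these, with a threshold of 0.05. They set differences of group means against the spread between these animals within genotypes, an estimate shared in part across genes. With 1 line per transgene they do not cover variation between lines. CPM was computed from the deposited counts with TMM factors, and CPM per kb by dividing by the union of exons. Log2 CPM used a prior count of 2. No pair of libraries agreed within sampling noise (chi-square over degrees of freedom was at least 4.87 in all 45 pairs). The code was tested on simulated data.

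Alternatives were DESeq2 1.42.0, limma 3.58.1 (voom with quality weights), DESeq2-style size factors (RLE), no filter, the compared groups alone, removal of GC and length trends, and leaving out libraries. GC content and length were available for 99.72% of tested genes. Genes named were the 8 members, their measured relatives, of the wider list those past the threshold or else the 4 with the smallest p, and the 10 genes most like the members. Introns and proteins were not analysed here.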

Additional observations from a re-analysis of the deposited data

Results flagged for a closer look

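In the M337V group of 5 libraries, 4 of 90 genes looked at had 1 library far from the other 4, by a gap over 0.71 of the whole range of the group (Dixon's criterion). Chance alone marks about 1 in 20 such groups. None of the 8 vesicle release genes was among them. Vamp1 was at 1519 CPM in M337V 3 against 1374 to 1405 in the others, Syt13 was at 58.1 CPM in M337V 3 against 74.8 to 79.6, Syn3 was at 16.1 CPM in M337V 2 against 18.2 to 18.8, and Syngr1 was at 315 CPM in M337V 7 against 262 to 274.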

How the results depend on the processing

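No paired analysis was possible because each animal gave 1 library and the labels do not name the litters. For the 8 genes, 428 of 456 values over 19 alternatives kept direction and side of the threshold, 17 newly passed it and 11 reversed. Counts called moved by over 1.5 times as follows, for all genes, the 8 members and the wider list. M337V against NTg (651, 0 and 0): the 2 groups alone 1057 genes; limma-voom 1315, 1 and 7; DESeq2 1500, 1 and 9; omitting NTg 4 and WT 8, 1 of the list; omitting M337V 1 to 3, 3 genes; omitting M337V 7 and 9, 1146, 4 and 5. WT against NTg (857, 0 and 3): the 2 groups alone 258, 1 and 1; limma-voom 215 genes and 1 of the list; DESeq2 1724, 4 and 6; omitting NTg 4 and WT 8, 142 genes and 0 of the list; omitting M337V 1 to 3, 2 members; omitting M337V 7 and 9, 1 member. M337V against WT (0, 0 and 0): no filter 1 gene; DESeq2 29 genes and 1 of the list; omitting NTg 4 and WT 8, 4 genes; omitting M337V 7 and 9, 4 genes. Leaving out 1 library gave 2 (without NTg 6) to 1016 genes, 0 to 1 members and 0 to 2 of the list in M337V against NTg, 44 (without NTg 6) to 1086 genes, 0 to 2 members and 0 to 4 of the list in WT against NTg, and 0 to 6 genes, 0 to 0 members and 0 to 0 of the list in M337V against WT. A lone WT library was then assumed to vary like the other groups. Reversed log2 differences were 0.0053 for Syt1 (M337V against NTg, omitting M337V 1 to 3) and, with GC and length trends removed, 0.0539 for Vamp2 (M337V against NTg), 0.0583 for Sv2a (WT against NTg) and -0.0245 for Syn1 (M337V against WT), the first 2 of these beside medians of all genes of 0.0379 and 0.0591. In M337V against WT also reversed were Snap25 (0.0496, leave-one-out range -0.1363 to 0.0496), Syp (0.0311, range -0.0947 to 0.0311) and Syn1 (-0.0791, range -0.0791 to 0.1476) without WT 10, Syp (0.0695) and Sv2a (0.0625) omitting M337V 1 to 3, and Syn1 omitting M337V 7 and 9 (-0.0502) or without M337V 7 (-0.0088). The cause of these changes was not tested. Stx1a, at 9.21 to 16.6 CPM, has the fewest reads of the 8 genes, and the WT group rests on 2 animals.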
